A study of Mus musculus with 4 samples.

Results

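Signalling from the IL-4 receptor to STAT6 is described here through 10 genes on 4 microarrays of mouse bone marrow-derived macrophages (BMDMs). The genes were Il4ra, Il2rg, Il13ra1, Jak1, Jak3, Stat6, Socs1, Cish, Irf4 and Klf4. They were found by gene name among the probes of the array, where they held 14 of 55681 probes and were 10 of the 23212 genes that carried a symbol. There were 4 groups with 1 array each, all from C57BL/6J mice aged 10 weeks whose marrow cells had grown for 6 days in L929 supernatant, a source of M-CSF. Wild-type M1 BMDMs then received IFN-γ at 20 ng/ml with LPS at 100 ng/ml, wild-type M2 BMDMs received IL-4 at 50 ng/ml, and each stimulation lasted 2 days. The third group, M2 stimulated in the same way, carried the genotype given as p18 (2400001E08Rik) -/-, which is Lamtor1. The study's methods describe this knockout as floxed Lamtor1 deleted by LysM-Cre, a Cre driver of myeloid cells. The fourth group was wild-type and received IL-4 together with Torin1 at 250 nM, an inhibitor of the mTOR kinase in both of its complexes.

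IL-4 binds the IL-4Rα chain (Il4ra), which pairs either with the common γ chain (Il2rg) in the type I receptor or with IL-13Rα1 (Il13ra1) in the type II receptor. At the type I receptor the bound kinases JAK1 and JAK3 then phosphorylate the receptor and STAT6. Phosphorylated STAT6 enters the nucleus and switches on M2 genes in macrophages. Socs1 and Cish encode feedback inhibitors of cytokine receptors, and Irf4 and Klf4 encode transcription factors known to act in M2 polarization. The arrays measured mRNA only, so neither phosphorylation nor protein was measured. Lamtor1 itself anchors the Ragulator complex, through which mTORC1 is recruited to the lysosome.

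Levels are given as the normalized signal unless called an intensity. The normalized signal is a probe's background-subtracted intensity divided by the 75th percentile of all probes on its array. A log2 ratio compares the normalized signals of a probe on 2 arrays, and the M2 array was the control of all 3 comparisons, which therefore share it. With 1 array per group no test between groups was possible, and culture, array and group cannot be told apart. The error given after ± is the scanner software's own error estimate for the intensity, carried into the ratio. It lay between 0.20 and 0.32 on the log2 scale for the members, and differences within 2 errors were treated as not resolved. Probes spotted at least 8 times per array, and well above background, gave a smaller spot-to-spot SD of 0.086 to 0.095 for a log2 ratio, and of 0.15 to 0.18 where the intensity was under 300, as it was for Il13ra1 and the first Stat6 probe on all arrays and for some other member probes on 1 or 2 arrays, mostly the Torin1-treated array. Both measures leave out the variation between cultures. All 14 probes of the members were single spots, were well above background on all 4 arrays and were never marked as outliers. A 2-fold difference, 1 on the log2 scale, served as the mark of size.

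The probe of Lamtor1 had an intensity of 39460 on the M2 array and 833 on the Lamtor1-deficient array, or 2.34% of the M2 level after normalization, in keeping with its genotype label. On the Torin1-treated array its intensity was 35232 and on the M1 array 14688, and the log2 ratios to M2 after normalization were 0.18 and -0.37. All 7 macrophage markers were well above background on the 4 arrays, with a summed normalized signal between 450 and 779, to which the brightest probe of Csf1r gave the most in M2. However, Emr1 (F4/80) read -2.57 after Lamtor1 loss and -2.81 with Torin1 as log2 ratios to the M2 array, and Fcgr1 read -4.96 and -4.61. The probes of Csf1r and Itgam disagreed. The brightest read -0.44 and -0.27 for Csf1r and -0.81 and 0.15 for Itgam, but the other probes of Csf1r read -1.86 and -1.84 after Lamtor1 loss and -1.85 and -2.14 with Torin1, and those of Itgam -1.10 and -2.34, and -1.76 and -2.81. Markers of other cells also differed between arrays. Summed over the 4 neutrophil genes measured on all arrays, the normalized signal was 22.5 in M2, 3.76 in Lamtor1-deficient M2, 3.43 in Torin1-treated M2 and 2.98 in M1 BMDMs. This sum leaves out Elane, whose spot was an outlier on the Torin1-treated array and which stood the other way, at 12.4 in M2, 18.6 in Lamtor1-deficient M2 and 52.1 in M1 BMDMs, so that with it the M1 array would be above M2. Summed over 5 fibroblast genes it was 43.2, 55.9, 15.3 and 16.0 in the same order. Of 6 lymphocyte genes, Cd3g and Cd8a were well above background only on the Lamtor1-deficient array, and the sum lay between 2.00 and 4.11 on the 4 arrays. Cd3e and Cd79a were well above background on all 4 arrays, and Cd3e made up most of the sum. The mast cell, basophil and eosinophil genes summed to at most 0.238, and the 4 dendritic cell genes to between 88.0 and 233, nearly all of it Siglech. The part of these cells in the results was not tested, and in such bulk samples fewer cells of a type and less RNA per cell cannot be told apart.

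Stat6, Il4ra and Jak3 were each read by more than 1 probe, and the probes gave different answers, so their sequences are shown to identify which stretch of the transcript each value comes from. The array's own annotation gave the coordinates, on mm9, and the strand is that of the gene. Which exon or untranslated region a probe lies in was not given in the sources used here. All bases of the probe are printed, except for the last probe of Stat6 and of Il4ra, where the first 30 of 60 bases are shown.
Stat6 A_52_P132761, chr10:127083983-127084042, plus strand, base 300 of the transcript: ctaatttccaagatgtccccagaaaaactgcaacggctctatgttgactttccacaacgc
Stat6 A_65_P00601, chr10:127095694-127095753, plus strand, base 2354: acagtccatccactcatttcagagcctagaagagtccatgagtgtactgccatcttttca
Stat6 A_52_P114494, chr10:127097689-127097748, plus strand, base 3450: tctgaaaggctgagacattgtataagacag
Il4ra A_55_P1966189, chr7:132712550-132712609, plus strand, base 466: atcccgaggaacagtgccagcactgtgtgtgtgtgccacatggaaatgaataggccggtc
Il4ra A_55_P2017789, chr7:132722922-132722981, plus strand, base 5027: acctgttgggaattccaaccctcaccagtc
Jak3 A_55_P2010912, chr8:74210801-74210860, plus strand, base 3223: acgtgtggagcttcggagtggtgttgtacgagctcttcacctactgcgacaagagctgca
Jak3 A_51_P355360, chr8:74214085-74214144, plus strand, base 3542: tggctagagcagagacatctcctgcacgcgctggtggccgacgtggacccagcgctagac

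Over the 10 members, each taken by its brightest probe, 2-fold differences among the arrays with IL-4 were mostly those of Torin1. With Torin1, 5 members were lower by 2-fold or more (Il4ra, Socs1, Cish, Irf4 and Klf4) and 0 were higher. Of all 23187 genes with a value in that comparison, 11.8% were lower and 14.3% higher by 2-fold, and of the 12805 genes that, like the members, were well above background on each of the 4 arrays, 12.7% were lower and 11.6% higher. The median log2 ratio of the members was -0.997 with Torin1, against -0.05 over all genes and 0.01 over those well above background. After Lamtor1 loss, 1 member was higher by 2-fold (Il13ra1) and 0 were lower. The corresponding shares were 8.88% higher and 8.68% lower over all genes, and 7.04% and 7.33% over genes well above background on the 4 arrays. The members' median was -0.24, against 0.04 over all genes. No member passed 2-fold in the same direction in both comparisons.

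On the Lamtor1-deficient array several members stood between the M2 and the Torin1-treated arrays. The order M2, then Lamtor1-deficient M2, then Torin1-treated M2 from high to low was found for 6 of the 10 members, namely Il4ra, Jak3, Socs1, Cish, Irf4 and Klf4, and for 18% of those 12805 genes. This order is that of the brightest probe of each gene and includes steps within 2 errors. The second probe of Jak3 did not have it, at 0.536, 0.441 and 0.588 on these arrays. Both steps exceeded 2 errors for Il4ra, Socs1 and Irf4. For Jak3, Cish and Klf4 the step from M2 to Lamtor1-deficient M2 did not.

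In M1 BMDMs, 4 members were higher than in M2 BMDMs by 2-fold or more (Il2rg, Il13ra1, Socs1 and Klf4) and 2 were lower (Cish and Irf4). Such differences were common in this comparison. Over all genes with a symbol, 30.5% were higher and 19.3% lower in M1, and over genes well above background on the 4 arrays 23.9% and 25.9%. The members' median was 0.79, against 0.74 over all genes and 0.04 over genes well above background. The M1 ratios depend on scaling, because the 75th percentile of the M1 array was an intensity of 287 and that of the M2 array 595, while the array medians were 25.7 and 30.1. Scaling to the median shifted the median M1 ratio of all genes by -0.82 on the log2 scale, and with it the members' median was -0.03. All 6 members past 2-fold stayed past it in the same direction with this scaling.

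**Figure D1:**
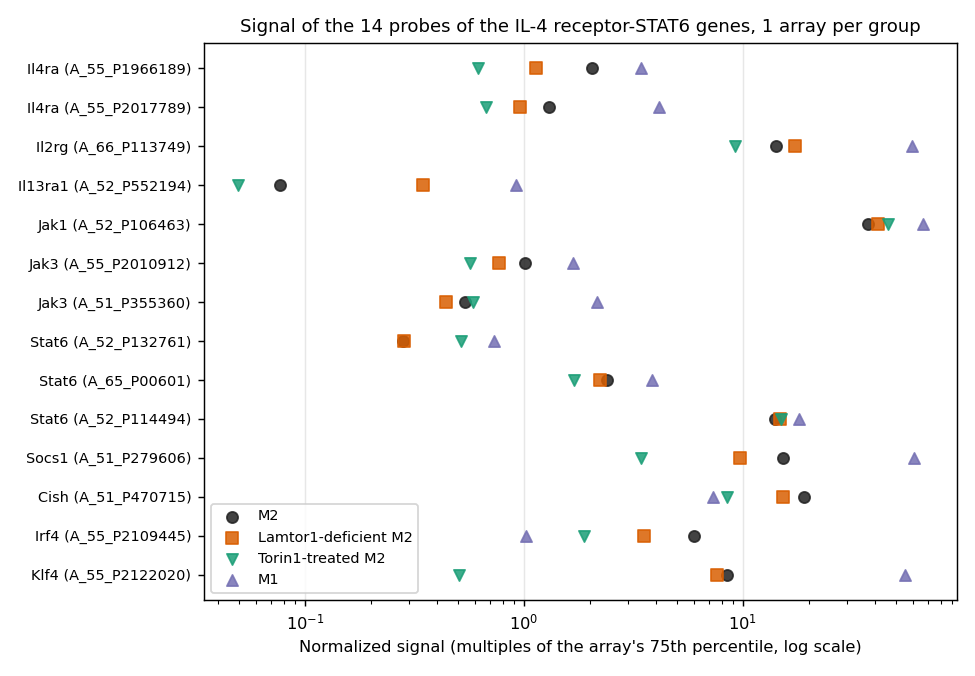
Normalized signal (x axis, log scale, in multiples of each array's 75th percentile) of the 14 probes on the 4 arrays, 1 point per array. Klf4 sits at 0.505 on the Torin1-treated array and at 8.51, 7.61 and 55.1 on the M2, Lamtor1-deficient and M1 arrays, whereas the points of Jak1 and of the Stat6 probe A_52_P114494 lie close together on the 3 arrays with IL-4.

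Among the receptor chains, Il4ra was lower on both perturbed M2 arrays, Il2rg was under the 2-fold mark on both, and Il13ra1 was higher after Lamtor1 loss. Il4ra encodes the chain that binds IL-4 itself. Its probe A_55_P1966189 had a normalized signal of 2.05 in M2, 1.13 in Lamtor1-deficient M2, 0.615 in Torin1-treated M2 and 3.42 in M1 BMDMs. The 4 arrays thus stood in the order M1, M2, Lamtor1-deficient and Torin1-treated, with every step beyond 2 errors. The log2 ratio was -0.86 ± 0.20 after Lamtor1 loss and -1.74 ± 0.20 with Torin1, or 55.2% and 30.02% of the M2 level. The second probe, A_55_P2017789, read 1.30, 0.959, 0.669 and 4.14 on the same arrays. It kept the order of the arrays but gave smaller differences among those with IL-4, with log2 ratios of -0.43 ± 0.20 and -0.96 ± 0.21, so that the Torin1 difference was just inside 2-fold. In M1 BMDMs the first probe was higher by 0.74 and the second by 1.68. When arrays were scaled to the median these became -0.08 and 0.85, so the direction of Il4ra between M1 and M2 was not settled by the first probe.

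Il2rg, on chromosome X, encodes the γ chain shared with the receptors of IL-2, IL-7, IL-9, IL-15 and IL-21. Its normalized signal was 14.1 in M2, 17.3 in Lamtor1-deficient M2, 9.20 in Torin1-treated M2 and 59.5 in M1 BMDMs. The M2 and Lamtor1-deficient arrays did not differ beyond 2 errors (0.29 ± 0.20). The Torin1-treated array was lower by 0.62 on the log2 scale, which is beyond 2 errors but under 2-fold, and the M1 array was 4.21-fold higher.

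Il13ra1, also on chromosome X, encodes the partner chain of the type II receptor and was the dimmest member. Its intensity was 45.7 in M2, 186 in Lamtor1-deficient M2, 23.3 in Torin1-treated M2 and 265 in M1 BMDMs, where the lowest intensity well above background was 21.6, 20.1, 15.7 and 18.8. The signal was therefore close to that limit on the M2 and Torin1-treated arrays and further above it on the other two. In normalized signal the values were 0.0768, 0.347, 0.0496 and 0.924. The log2 ratio was 2.18 ± 0.25 after Lamtor1 loss, a 4.52-fold difference, and 3.59 ± 0.25 in M1 BMDMs. The Torin1-treated and M2 arrays were not resolved (-0.63 ± 0.32). With the normexp background correction the difference after Lamtor1 loss was 1.34 and that in M1 BMDMs 2.50. Among the 12805 genes, 214 had a higher log2 ratio than Il13ra1 after Lamtor1 loss. Other cells move beside this value. The fibroblast gene Dcn was higher by 1.91 on the log2 scale and Pdgfra by 1.45 in Lamtor1-deficient BMDMs, while Col1a1, Col1a2 and Col3a1 differed by 0.26, 0.23 and 0.59. Their part in the Il13ra1 difference was not tested.

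The kinase genes were under the 2-fold mark on the arrays with IL-4, except that Jak3 passed it with Torin1 when arrays were scaled to the median. Jak1, whose product serves most cytokine receptors of this family, had normalized signals of 37.4 in M2, 41.3 in Lamtor1-deficient M2, 45.9 in Torin1-treated M2 and 66.6 in M1 BMDMs. The 3 arrays with IL-4 were not separated between neighbours beyond 2 errors, at 0.14 ± 0.20 after Lamtor1 loss and 0.30 ± 0.20 with Torin1. The M1 difference of 0.83 was 0.01 when arrays were scaled to the median.

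Jak3 encodes the kinase that binds the γ chain. Its probe A_55_P2010912 had normalized signals of 1.01, 0.770, 0.568 and 1.68 in M2, Lamtor1-deficient M2, Torin1-treated M2 and M1 BMDMs. Torin1-treated BMDMs were thus lower by 0.83 on the log2 scale, beyond 2 errors, while Lamtor1-deficient BMDMs were not resolved from M2 (-0.39 ± 0.20). With scaling to the median the Torin1 ratio of this probe was -1.08, past 2-fold. The second probe, A_51_P355360, read 0.536, 0.441, 0.588 and 2.15, and there the Torin1 ratio was 0.13 ± 0.21. The annotation of the second probe also lists a transcript of Insl3, a neighbouring gene that overlaps it, so its signal may come from both genes. The ratios of the 2 probes differed by 0.97 ± 0.29 with Torin1 and by 1.27 ± 0.29 in M1 BMDMs, and by 0.11 ± 0.29 after Lamtor1 loss.

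Stat6 encodes the transcription factor that IL-4 activates, and its 3 probes are shown one by one because they disagreed. The probe near the end of the transcript, A_52_P114494, had normalized signals of 14.1 in M2, 14.7 in Lamtor1-deficient M2, 14.9 in Torin1-treated M2 and 18.0 in M1 BMDMs. No 2 neighbours in this order differed beyond 2 errors, and the log2 ratios were 0.06 ± 0.20 after Lamtor1 loss, 0.08 ± 0.20 with Torin1 and 0.35 ± 0.20 in M1 BMDMs. The middle probe, A_65_P00601, read 2.41, 2.22, 1.70 and 3.83, and gave -0.12 ± 0.20, -0.51 ± 0.20 and 0.67 ± 0.20. The probe near the beginning, A_52_P132761, read 0.282, 0.284, 0.515 and 0.731, and gave 0.01 ± 0.21, 0.87 ± 0.21 and 1.38 ± 0.21. After Lamtor1 loss the 3 probes thus lay within 0.18 of each other and none was resolved from M2. With Torin1 they spanned 1.38 ± 0.29, from lower at the middle probe to higher at the first, and 0 of the 3 passed 2-fold. In M1 BMDMs only the first passed 2-fold, and scaling to the median gave 0.55, -0.15 and -0.47 from the first probe to the last.

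**Figure D2:**
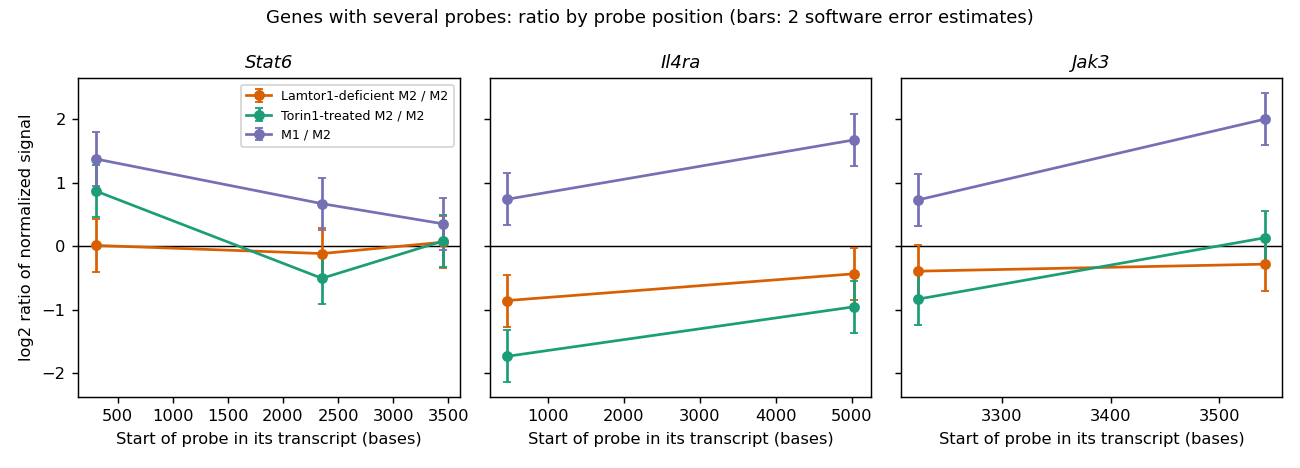
Log2 ratio to the M2 array (y axis) of each probe of Stat6, Il4ra and Jak3 against the base of its transcript where the probe starts (x axis), with bars of 2 software error estimates. After Lamtor1 loss the Stat6 probes stay near 0, whereas with Torin1 they read 0.87, -0.51 and 0.08 from the beginning to the end of the transcript.

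The feedback inhibitors were lower with Torin1. Socs1, on chromosome 16, encodes a protein that binds and blocks JAK kinases. Its normalized signal was 15.3 in M2, 9.66 in Lamtor1-deficient M2, 3.44 in Torin1-treated M2 and 60.8 in M1 BMDMs, with every step of this order beyond 2 errors. The log2 ratio was -0.66 ± 0.20 after Lamtor1 loss, -2.15 ± 0.20 with Torin1 and 1.99 ± 0.20 in M1 BMDMs. The Torin1-treated level was 22.5% of M2, and 426 of the 12805 genes well above background had a lower ratio.

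Cish, on chromosome 9, encodes a relative of SOCS1 that is itself induced by STAT proteins. Its normalized signal was 18.9 in M2, 15.2 in Lamtor1-deficient M2, 8.48 in Torin1-treated M2 and 7.27 in M1 BMDMs. The first pair and the last pair were each within 2 errors, with the scaling to the 75th percentile. With scaling to the median the lower pair stood apart, since the ratio to M2 was -1.41 with Torin1 and -2.20 in M1 BMDMs. The log2 ratio was -0.32 ± 0.20 after Lamtor1 loss, -1.16 ± 0.20 with Torin1 and -1.38 ± 0.20 in M1 BMDMs. Unlike Socs1, Cish was lower in M1 than in M2 BMDMs.

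The transcription factors Irf4 and Klf4 were both lower with Torin1. Irf4, on chromosome 13, encodes an interferon regulatory factor that takes part in the M2 programme. Its normalized signal was 5.95 in M2, 3.53 in Lamtor1-deficient M2, 1.89 in Torin1-treated M2 and 1.02 in M1 BMDMs, with each step beyond 2 errors. The log2 ratio was -0.75 ± 0.20 after Lamtor1 loss, -1.65 ± 0.20 with Torin1 and -2.54 ± 0.21 in M1 BMDMs. Irf4 was the member with the lowest M1 ratio, at 17.2% of the M2 level.

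Klf4, on chromosome 4, encodes a Krüppel-like factor that cooperates with STAT6 at M2 genes. Its normalized signal was 8.51 in M2, 7.61 in Lamtor1-deficient M2, 0.505 in Torin1-treated M2 and 55.1 in M1 BMDMs. The Lamtor1-deficient array was not resolved from M2 (-0.16 ± 0.20), but the Torin1-treated array was lower by 4.07 on the log2 scale, at 5.93% of M2. This was the largest Torin1 difference of the 10 members, and 82 of the 12805 genes well above background had a lower ratio. In M1 BMDMs Klf4 was 6.48-fold higher. Klf4 and Irf4, both lower with Torin1, thus differed from M2 in opposite directions in M1 BMDMs.

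**Figure D3:**
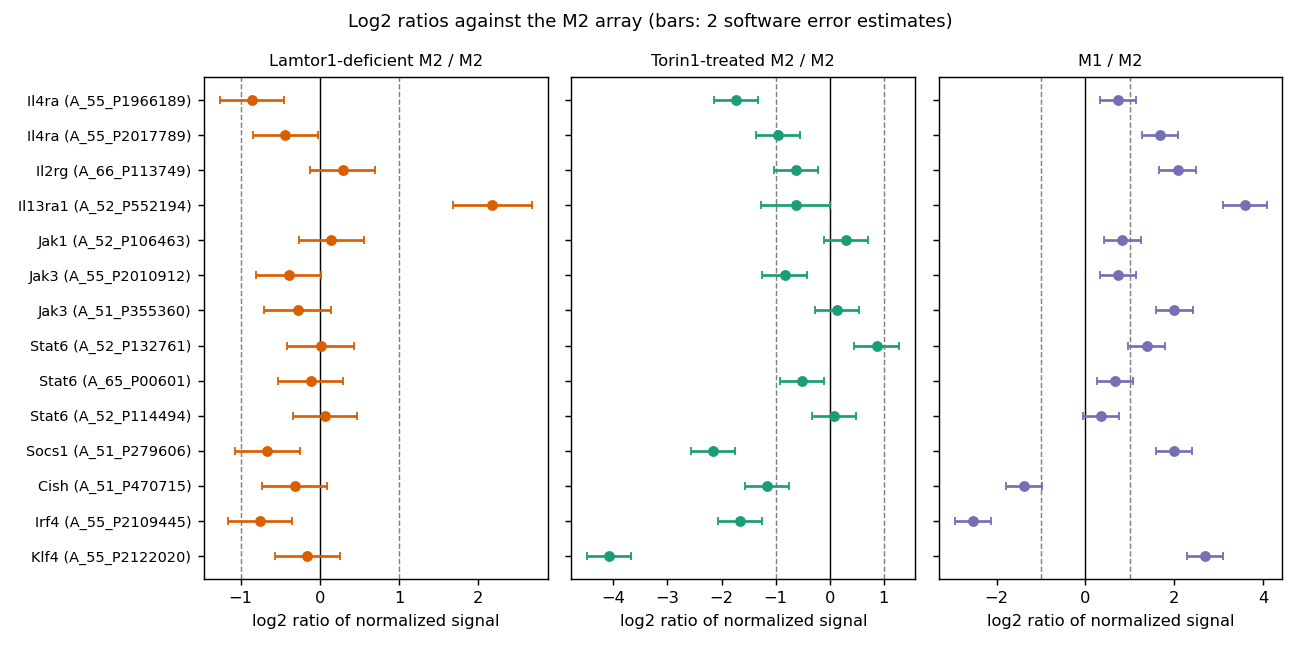
Log2 ratio to the M2 array (x axis) of the 14 probes in the 3 comparisons, with bars of 2 software error estimates and dashed lines at 2-fold. After Lamtor1 loss only Il13ra1, at 2.18, lies past a dashed line, and with Torin1 Klf4, Socs1, Irf4, Cish and the first Il4ra probe lie past the lower line.

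The promoters of the members were searched for STAT motifs, since 5 members were lower with Torin1. RefSeq windows on GRCm38.p6 of 300 bases, 250 before and 50 after the annotated start, were available for all 10. The STAT6-type motif TTCNNNNGAA, which reads the same on both strands, was in 0 of the 10 windows and in 6.95% of the 32851 promoters of the table. The motif with the shorter spacer, TTCNNNGAA, typical of other STAT proteins, was in 1 of the 10 and in 8.30% of all. The window with the motif was that of Cish, with 2 copies, at bases 1 and 12 from the start. The stretch that holds both is shown, with the motif copies in capitals.
Cish promoter, chr9:107296654-107296683, plus strand, GRCm38.p6: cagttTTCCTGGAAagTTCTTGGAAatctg
Regions outside these windows were not searched.

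The other genes of the pathway were read from lists, each gene by its brightest probe and only where it was well above background on both arrays compared. Their counts are to be read against the shares of all genes well above background, which were 7.04% higher and 7.33% lower after Lamtor1 loss, 11.6% and 12.7% with Torin1, and 23.9% and 25.9% in M1 BMDMs. Nothing particular to a list is read from its counts. Among 13 ligands and receptors of IL-4 and of the γ chain family, 7 could be compared after Lamtor1 loss, of which 1 was higher and 2 lower by 2-fold, and 7 with Torin1, of which 1 was higher, near the share of all genes, and 3 lower. Il21r, the receptor of IL-21, read -4.39 on the log2 scale after Lamtor1 loss and -2.37 with Torin1. Il7r, the receptor of IL-7, read 1.75 and 2.36. Both of these receptors pair with the γ chain, and they differed from M2 in opposite directions on each array. Il15ra read -1.66 and -2.23 by its brightest probe, A_55_P2060707, but 0.69 and 1.65 by A_55_P2041738. Il13ra2, a decoy receptor for IL-13, read 0.98 and -1.86, and in M1 BMDMs it was not well above background and at least 13.6-fold lower than in M2. In M1 BMDMs 3 of 5 were higher, against 23.9% of all genes, and 0 lower, led by Il15 at 5.33. The others named there were Il4 at 1.16, Il15ra at 1.104 by its brightest probe (5.65 by the other) and Il7r at 0.74. Il4 was dim, with an intensity of 53.3 in M1 and 49.6 in M2. Scaling to the median shifts M1 ratios by -0.82, which takes Il4 and the brightest Il15ra probe under 2-fold.

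Of 10 remaining JAK, STAT and IRS genes, 0 passed 2-fold after Lamtor1 loss, while 1 was higher and 1 lower with Torin1. These counts are near the shares of all genes. With scaling to the median 0 were higher with Torin1. Jak2, a kinase of cytokine receptors, read -0.68 and -1.73 after Lamtor1 loss and with Torin1, and Stat2 -0.56 and -0.60. Irs2, an adaptor that IL-4 receptor also uses, read 1.15 with Torin1 and Irs1 -0.72. Stat5a and Stat5b read 0.45 and 0.43 after Lamtor1 loss. In M1 BMDMs 5 of the 9 comparable genes were higher and 3 lower, with Stat2 at 3.55, Stat3 at 2.38 and Irs2 at 1.48.

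Among 14 SOCS, phosphatase and PIAS genes, which restrain JAK-STAT signalling, 1 was higher and 1 lower after Lamtor1 loss, and 1 was higher and 2 lower with Torin1, all near the shares of all genes. With Torin1, 5 were lower with scaling to the median and 4 with the mean of a gene's probes. Socs2, a relative of Cish, read -2.22 and -3.42, and its other 2 probes read -2.14 and -3.45, and -2.25 and -2.93. Socs3, an inhibitor best known from gp130 receptors, read 1.74 and 1.42. The SOCS genes therefore did not differ in one direction: with Torin1 Socs1, Socs2, Cish and Socs5 (-1.11) were lower by 2-fold and Socs3 was higher. Ptpn11, a phosphatase, read -0.91 with Torin1, and Pias1 and Pias3 read -0.62 and -0.46 after Lamtor1 loss. In M1 BMDMs 5 of 13 were higher and 3 lower, with Socs3 at 8.59, Socs4 at 2.04, Pias4 at 1.54 and Socs5 at -3.10.

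Of 8 other IRF genes, 3 were lower by 2-fold after Lamtor1 loss, namely Irf7 (-2.43), Irf2 (-1.05) and Irf5 (-1.01). With scaling to the median 1 was lower, since Irf2 and Irf5 lie just past the mark, and 7.33% of all genes well above background were lower. With Torin1, Irf1 was higher at 1.48, or 1 of 8 against 11.6% of all genes, and 0 were lower, with Irf7 at 0.80 and Irf8 at 0.37. Irf7 is a regulator of type I interferon genes, and among the arrays with IL-4 it was lowest after Lamtor1 loss, where Irf4 was lowest with Torin1. In M1 BMDMs Irf7 read 6.01, Irf1 3.74, Irf9 1.59 and Irf3 -0.75. Irf7, Irf1 and Irf9 were thus higher in M1 by 2-fold, where Irf4 was lower. With scaling to the median 2 were higher, as Irf9 fell under the mark.

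Of 16 other KLF genes, 11 could be compared in each comparison, and 0 were higher and 3 lower after Lamtor1 loss, while 1 was higher and 3 lower with Torin1, and with scaling to the median 0 were higher with Torin1. The 1 of 11 higher with Torin1 is near the share of all genes, 11.6%. Klf2, a factor of quiescence in blood cells, read -1.89 and -2.54. Klf11 read -1.17 and 1.02, in opposite directions (a difference that was not tested), and Klf10 -1.04 after Lamtor1 loss, where Klf7 read -0.89. With Torin1, Klf8 read -1.94 and Klf3 -1.28. No other KLF gene had a Torin1 ratio as low as that of Klf4. In M1 BMDMs 3 were higher and 3 lower, near the shares of all genes, with Klf10 at 1.59, Klf6 at 1.22, Klf9 at -3.06 and Klf16 at -1.52.

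The 18 genes known to be induced by IL-4 in macrophages are the outputs of this pathway, several of which the study itself uses as M2 markers. After Lamtor1 loss, 16 could be compared, of which 1 was higher and 9 lower by 2-fold, and with Torin1 15, of which 0 were higher and 8 lower. Of all genes well above background, 7.33% and 12.7% were lower in these comparisons. The medians of the comparable list genes were -1.38 and -1.84, and over all 18 genes -1.11 and -1.15, against -0.24 and -0.997 for the 10 members. The list was chosen with earlier results of these data known and holds M2 markers of the study. Its lower medians are therefore not an independent result. The filter leaves out Retnla with Torin1, because it was not well above background on the Torin1-treated array. Clec10a, a lectin of M2 cells, read -2.42 and -6.61. Mgl2, its neighbour gene, read -2.33 after Lamtor1 loss, and the chemokine gene Ccl24 and the transcription factor gene Batf3 read -6.84 and -4.82 with Torin1. Ccl17, another chemokine gene, read 2.61 after Lamtor1 loss and -3.65 with Torin1. Not all outputs differed, and Chi3l3, another M2 marker, read 0.22 on both arrays. In M1 BMDMs 4 of 14 were higher and 10 lower, led by Chi3l3 at -12.25, Egr2 at -8.26, Mrc1 at -8.18 and Ccl24 at -5.95. The M1 counts of the lists depend on scaling. Over all measured genes, scaling to the median took the number higher in M1 from 7 to 3 for ligands and receptors, from 5 to 3 for JAK, STAT and IRS genes, from 5 to 2 for SOCS, phosphatase and PIAS genes, from 4 to 0 for KLF genes and from 4 to 1 for IL-4-induced genes. It took the number lower from 3 to 6 for KLF genes and from 0 to 2 for IRF genes. Of the IRF genes 2 instead of 3 were then higher.

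**Figure D4:**
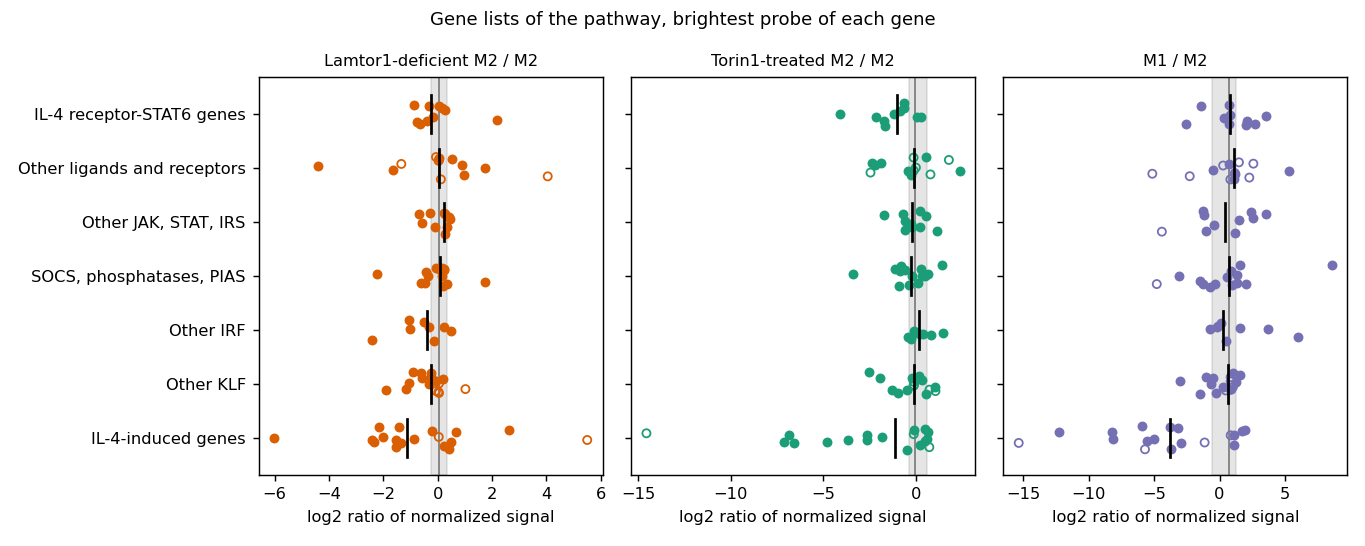
Log2 ratio to the M2 array (x axis) of each gene of the pathway lists, with filled points for genes well above background on both arrays, open points for the others and a black bar at the median of each list. The grey line and band are the median and the middle quartiles of all genes with a symbol. Among the IL-4-induced genes Clec10a reads -2.42 after Lamtor1 loss and -6.61 with Torin1, and the median of the IL-4 receptor-STAT6 genes is -0.24 and -0.997.

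For each member past 2-fold in any comparison, the gene with the most similar 3 log2 ratios was sought among the other 12804 genes well above background on all 4 arrays, as a description over 4 arrays only. The measure is the root mean square difference of the ratios. It was Tlr3 for Il4ra (0.10), 2610037D02Rik for Il2rg (0.077), Tnnt1 for Socs1 (0.17), Usp4 for Cish (0.076) and Sema4b for Irf4 (0.038). Il13ra1 and Klf4 had no close match. Their nearest genes were Gm5077 at 0.56 and Cd5l, a macrophage survival factor, at 0.40, with Cd5l reading -0.51, -3.81 and 3.23 after Lamtor1 loss, with Torin1 and in M1.

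**Figure D5:**
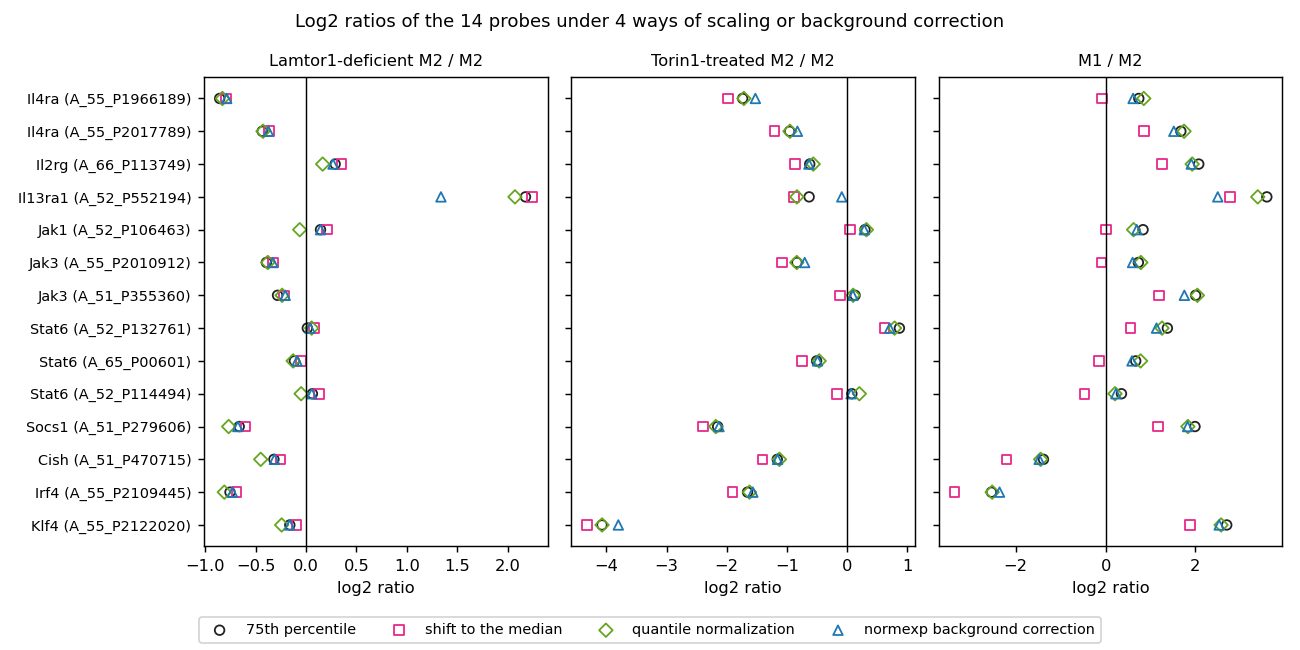
Log2 ratio to the M2 array (x axis) of the 14 probes with 4 ways of scaling the arrays or correcting background. Most points after Lamtor1 loss and with Torin1 lie close together, apart from Il13ra1, which reads 1.34 after Lamtor1 loss with normexp, and scaling to the median moves every M1 ratio to the left.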

How the data were processed

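Total RNA of the 4 BMDM groups was hybridised in 1 colour to Agilent whole mouse genome arrays. The deposited scanner files hold intensities, background-subtracted by Agilent Feature Extraction (10.7.3.1 in the file headers, 10.5.1.1 in the submitters' processing notes), and a deposited table of the series holds the same intensities without names of genes. Following the study's methods, intensities were floored at 1.0 and divided by the 75th percentile of non-control probes. Control and outlier spots were left out. Genes were counted by their brightest probe over the 4 arrays, with 2-fold as the mark. Names shown were all probes of the members, up to 4 genes per list and comparison with the largest differences, and the nearest gene in pattern. Lamtor1, cell type markers and some list genes outside this rule, such as Ccl22, Il2rb and Retnla, are also named. Some genes that this rule names are not reported here. Members and lists were chosen with earlier results of these data known. Alternatives were other scalings, normexp (limma 3.58.1, offset 50), a floor or filter on dim probes, outlier spots kept, the series table, 3-fold and the mean of probes. The calculation was tested on simulated data. The number of arrays limits the precision.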

Additional observations from a re-analysis of the deposited data

How the results depend on the processing

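No paired analysis was possible because each group has 1 array. The members' counts past 2-fold moved by less than 1.5 times under the alternatives run, with 6 instead of 5 lower with Torin1 on scaling to the median, except in M1 BMDMs, where 1 member instead of 2 was lower at 3-fold and 6 instead of 4 were higher with the mean of a gene's probes. The 6 members in the order M2, Lamtor1-deficient, Torin1-treated numbered 6 under all 9 alternatives, an order chosen after seeing the data. The members' median with Torin1 (-0.997) was -1.24 with scaling to the median and -0.895 with the mean of a gene's probes. Their median in M1 BMDMs (0.79) was -0.034 with scaling to the median, 0.654 with normexp and 1.29 with the mean of probes. The cause was not tested. Scaling to the median shifted the median Torin1 ratio of all genes by -0.25 and turned the sign of 2 of the 14 member probes, both within 2 errors of 0, and of 4 in M1. After Lamtor1 loss quantile normalization and the percentile of bright probes each turned the sign of 2 probes, all within 2 errors of 0. Of the list counts, 305 of 360 values kept within 1.5 times and 55 did not. Of 162 list medians, 12 turned sign, 7 of them in M1 BMDMs, all of them under 2-fold. With scaling to the median the M1 medians of the IRF, JAK-STAT, SOCS-phosphatase-PIAS and KLF lists went from 0.30, 0.40, 0.71 and 0.66 to -0.53, -0.42, -0.11 and -0.16. Dim signal limits Il13ra1, whose ratio after Lamtor1 loss ranged from 1.34 to 2.24 and whose M1 ratio ranged from 2.50 to 3.59.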

Other observations

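Some genes outside the pathway's members were higher on the Lamtor1-deficient array than in M2 BMDMs, and a few were well above background there only. Ccl22, a chemokine gene induced by IL-4, had an intensity of 766 there and was not well above background in M2 BMDMs, which makes it at least 39.3-fold higher, and Ccl17, well above background on the 3 arrays with IL-4, had an intensity of 4845 against 881. Il2rb, a receptor chain of lymphocytes that pairs with the γ chain, had an intensity of 70.2 on this array, at least 3.6-fold higher than in M2 BMDMs, and was not well above background on the other 3. The T cell genes Cd8a and Cd3g had intensities of 46.3 and 34.96 on the same array and were not well above background on the others. However, Cd3e, another T cell gene, was well above background on all 4 arrays, with a log2 ratio of -0.02 after Lamtor1 loss. The lymphocyte gene Cd79a was also above it on all 4 and read -1.84. The part of such cells in the Ccl17, Ccl22 and Il13ra1 values was not tested.

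Retnla, the gene of RELMα, had an intensity of 399700 in M2 and 79886 in Lamtor1-deficient BMDMs and was not well above background with Torin1, at least 20055-fold lower than in M2.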
